A study of Danio rerio with 8 samples.

Results

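Globins and other red cell genes were followed in trunk tissue of foxc1a mutant zebrafish embryos and their siblings. The members were 4 embryonic globins (hbae1, hbae3, hbbe2 and hbbe3), the red cell carbonic anhydrase cahz, the anion exchanger slc4a1a, the transcription factor gata1a, the membrane skeleton gene epb41b and the water channel aqp1a.1. They were chosen by symbol, and 9 of 10 listed symbols were found, each with 1 row, among 14581 transcripts of the table. The symbol hbbe1 was not matched, since the table names the genes of that type hbbe1.1 and by other symbols. All 9 members averaged at least 1 RPKM and so entered the tests. The unit, RPKM, corrects a read number for transcript length and for the size of the library.

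Poly(A) RNA was sequenced from 8 libraries, 2 for each combination of genotype and region. MUT_AS and MUT_PS came from embryos with p162 on both copies of foxc1a, which encodes a forkhead protein with roles in somites and blood vessels, and SIB_AS and SIB_PS came from their siblings. The sample labels give the siblings as p162 heterozygotes, whereas the series' design text calls them wild type. All embryos were 38 to 40 hours old and were raised at 28 °C without treatment; AS is segments 1 to 6, through which the fin nerves grow, and PS is segments 7 to about 12. Heads and yolks had been removed. The library whose title has no number is called replicate 1, and the one whose title ends in 3 is called replicate 3. The labels do not say whether the libraries of a group came from separate clutches or how many embryos each held, so p-values measure only the spread between these libraries.

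In the zebrafish embryo the first red cells form in the trunk in a tissue called the intermediate cell mass, enter the circulation and carry embryonic hemoglobin made of alpha-type and beta-type globin chains. They are nucleated, and they transcribe globin, heme and membrane genes together under Gata1. RNA of a trunk segment therefore includes red cells within its vessels. In such bulk RNA, fewer cells of a type and less RNA per cell cannot be told apart.

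The libraries differed in quality. In MUT_AS replicate 3, 17.5% of transcripts were listed at 0, where the rest of the libraries had 4.59% to 8.01%, and the lowest nonzero values (1st percentile) lay at 0.316 RPKM, against 0.00961 to 0.0506 RPKM. The SD between replicates over all tested transcripts was 0.363 on the log2 scale in MUT_AS and 0.181 to 0.195 in the other groups. Levels of foxc1a were 19.3 and 16.3 RPKM in MUT_AS and 9.02 and 7.74 RPKM in MUT_PS, against 18.1 and 16.3 RPKM in SIB_AS and 7.74 and 7.32 RPKM in SIB_PS, so its RNA does not separate the genotypes. Skeletal muscle, the main tissue of these segments, was well represented by 5 of its genes (actc1b, mylpfa, ckma, tnnt3b and myhz1.1). In replicate 1, then replicate 3, they summed to 11521 and 11494 RPKM in MUT_AS, against 15608 and 19994 RPKM in SIB_AS. The sums were 37415 and 37299 RPKM in MUT_PS, against 37838 and 48036 RPKM in SIB_PS. In each region both MUT sums were thus below both SIB sums, in PS by little beside the gap between the SIB_PS libraries. The share of all transcripts for which this held was not counted. What the lower sums do to the RPKM of other genes was not tested.

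All 9 members had higher fitted levels in MUT than in SIB, in AS, in PS and over both regions. Ratios of the MUT mean to the SIB mean ran between 2.63 and 3.71 for 8 members and came to 1.76 for aqp1a.1. In the fit as reported, which took the replicates as unpaired, only aqp1a.1 rose past the threshold. Its libraries hardly differed within groups, while for other members replicate 1 exceeded replicate 3 by up to 4.35-fold within a group, and gata1a was at 2.72 RPKM in one MUT_AS library and listed at 0 in the other. The median log2 difference over both regions, MUT minus SIB on log2(RPKM + 1), was 1.36 for the members and 0.06 for all 10889 tested transcripts. By limma with Benjamini-Hochberg adjustment over all of these, 1 of 9 members was called, where 0.0367% of transcripts were called higher. At an unadjusted p under 0.05, 8 of 9 members were higher, where 8.57% of transcripts were. This average takes AS and PS libraries as independent. Over all tested transcripts, replicate deviations from group means correlated at 0.522 between SIB_AS and SIB_PS and at 0.215 between MUT_AS and MUT_PS. The SEs over both regions may therefore be too small, and the regions are also given apart below.

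The most abundant member was hbae3, which encodes an embryonic alpha globin. It was at 2106 and 598 RPKM in MUT_AS (replicate 1, then replicate 3, here and in all lists of values that follow) and at 2943 and 895 RPKM in MUT_PS, against 704 and 249 RPKM in SIB_AS and 521 and 431 RPKM in SIB_PS. In PS both MUT libraries lay above both SIB libraries, and in AS the replicate 3 MUT library fell below the replicate 1 SIB library. The log2 difference over both regions was 1.60 (SE 0.62, adjusted p = 0.438 by limma). Levels of hbae1, the other alpha globin, were 133 and 40.0 RPKM in MUT_AS and 153 and 84.1 RPKM in MUT_PS, against 47.5 and 24.1 RPKM in SIB_AS and 49.4 and 35.2 RPKM in SIB_PS. The same arrangement held, with overlap in AS and none in PS, and the log2 difference was 1.26 (SE 0.43, adjusted p = 0.380 by limma).

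The beta globin hbbe3 stood at 1178 and 344 RPKM in MUT_AS and 1615 and 547 RPKM in MUT_PS, against 364 and 127 RPKM in SIB_AS and 305 and 198 RPKM in SIB_PS. Its log2 difference over both regions, 1.75 (SE 0.61, adjusted p = 0.407 by limma), was the largest of the members, and its libraries overlapped in AS but not in PS. The second beta globin, hbbe2, was far less abundant, with 28.9 and 9.29 RPKM in MUT_AS and 47.0 and 25.3 RPKM in MUT_PS, against 10.7 and 4.15 RPKM in SIB_AS and 8.88 and 8.26 RPKM in SIB_PS. It had a log2 difference of 1.54 (SE 0.41, adjusted p = 0.293 by limma), and its lowest MUT library lay below its highest SIB library in AS.

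**Figure D1:**
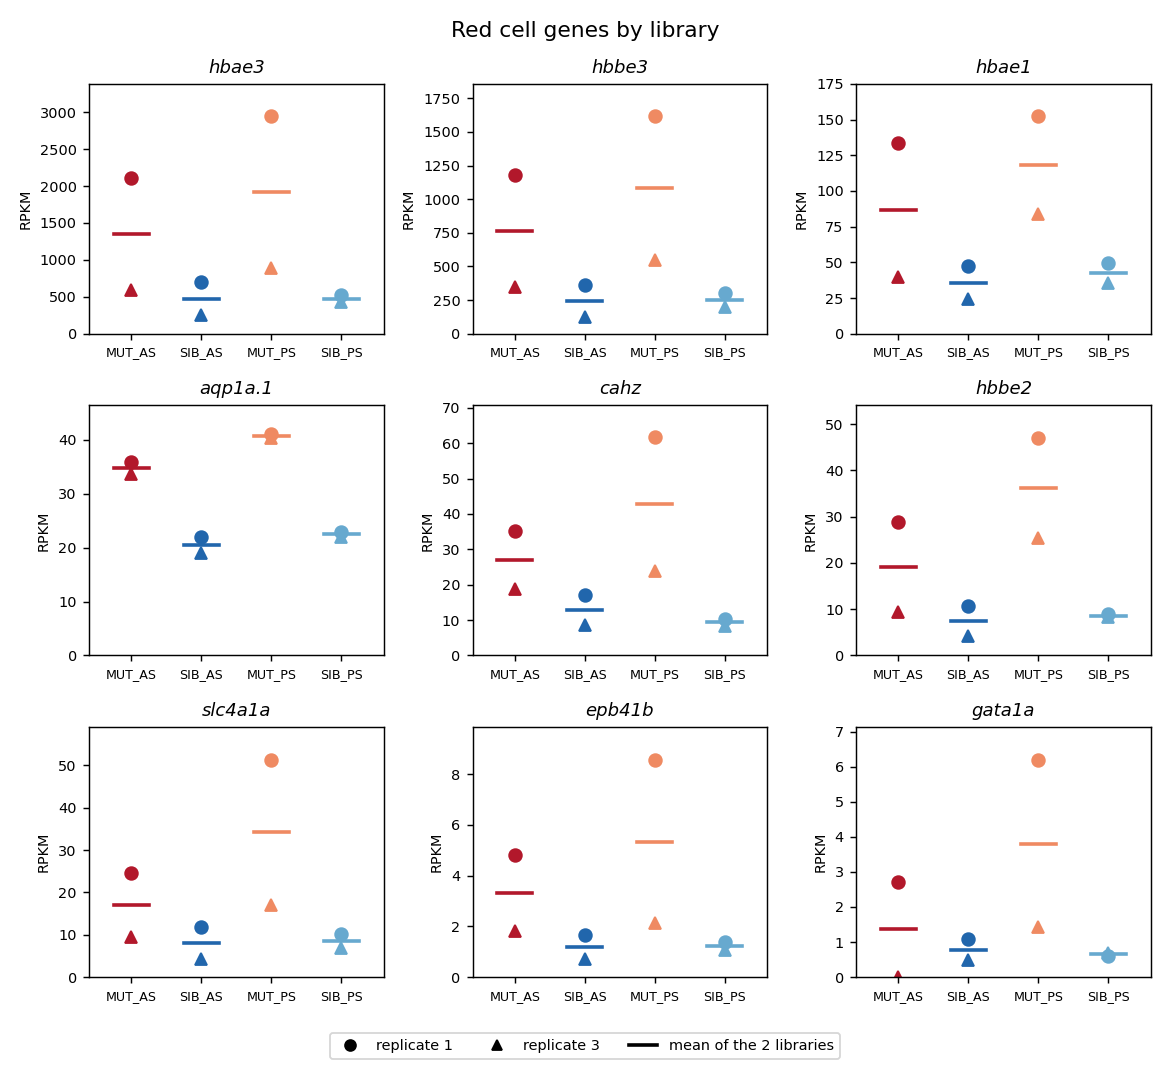
RPKM (linear axes from 0) of the 9 members in the 4 groups; circles are replicate 1, triangles replicate 3 and bars the mean of the 2 libraries. For aqp1a.1 the 4 MUT libraries lie between 33.6 and 41.1 RPKM and the 4 SIB libraries between 18.9 and 22.9 RPKM, while in the other panels replicate 1 of the MUT groups stands well above replicate 3.

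The carbonic anhydrase cahz, which hydrates carbon dioxide in red cells, had 35.1 and 18.8 RPKM in MUT_AS and 61.6 and 23.8 RPKM in MUT_PS, against 17.2 and 8.51 RPKM in SIB_AS and 10.4 and 8.36 RPKM in SIB_PS. Every MUT library was above every SIB library in each region, and the log2 difference was 1.48 (SE 0.35, adjusted p = 0.248 by limma). Its partner in carbon dioxide transport is slc4a1a, the chloride and bicarbonate exchanger known as band 3. The exchanger was at 24.7 and 9.54 RPKM in MUT_AS and 51.4 and 17.101 RPKM in MUT_PS, against 11.9 and 4.17 RPKM in SIB_AS and 10.2 and 6.95 RPKM in SIB_PS, and its log2 difference was 1.36 (SE 0.51, adjusted p = 0.420 by limma). In AS its replicate 3 MUT library fell below the replicate 1 SIB library.

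The protein 4.1 gene epb41b, whose product ties the spectrin skeleton to the red cell membrane, was a low transcript with 4.83 and 1.80 RPKM in MUT_AS and 8.58 and 2.11 RPKM in MUT_PS, against 1.64 and 0.72 RPKM in SIB_AS and 1.40 and 1.06 RPKM in SIB_PS. The MUT libraries were all above the SIB libraries, with a log2 difference of 1.11 (SE 0.37, adjusted p = 0.351 by limma). The lowest member was gata1a, the transcription factor that drives the red cell programme. It was at 2.72 RPKM and listed at 0 in MUT_AS and at 6.18 and 1.42 RPKM in MUT_PS, against 1.09 and 0.48 RPKM in SIB_AS and 0.60 and 0.69 RPKM in SIB_PS. The value of 0 is in the library with the most transcripts listed at 0. In AS the gata1a difference, 0.13 (SE 0.68, adjusted p = 0.954 by limma), changed sign without MUT_AS replicate 1, to -0.81, and without SIB_AS replicate 3, to -0.11; in PS it was 1.34 (SE 0.68).

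The water channel aqp1a.1, found in red cells and in the vessel wall of zebrafish embryos, was at 35.9 and 33.6 RPKM in MUT_AS and 41.1 and 40.3 RPKM in MUT_PS, against 21.9 and 18.9 RPKM in SIB_AS and 22.9 and 22.02 RPKM in SIB_PS. Replicate 1 exceeded replicate 3 by factors of only 1.02 to 1.16, and the genotypes did not overlap. It rose by a log2 difference of 0.79 over both regions (SE 0.11, adjusted p = 0.0289 by limma), rank 9 of 10889 by p. The size was stable, between 0.71 and 0.84 over 17 alternative fits, but the call was not. It was kept in 9 of them and lost without MUT_PS replicate 1 (adjusted p = 0.234), MUT_PS replicate 3 (0.105), SIB_AS replicate 1 (0.147), SIB_AS replicate 3 (0.297), SIB_PS replicate 1 (0.202) or SIB_PS replicate 3 (0.275), without the filter on low values (0.101) and with median scaling (0.0554).

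Taken by region, the median difference of the members was 1.02 in AS (all transcripts 0.08) and 1.70 in PS (all transcripts 0.06). In AS no member was called, where 0.00918% of transcripts were called higher, and 1 had an unadjusted p under 0.05, where 7.86% of transcripts did on the higher side. That member was aqp1a.1, with a log2 difference of 0.74 (SE 0.15, adjusted p = 0.216 by limma). It was 0.70 when MUT_AS replicate 1 was left out, which leaves in MUT_AS only the library with the most transcripts listed at 0. In PS no member was called, and 0% of transcripts were called higher, while 4 of 9 members (hbbe2, cahz, epb41b and aqp1a.1) had an unadjusted p under 0.05, where 2.13% of transcripts did on the higher side. In PS cahz differed by 1.93 (SE 0.49) and aqp1a.1 by 0.83 (SE 0.15, adjusted p = 0.352 by limma).

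By overlap alone, both MUT libraries lay above both SIB libraries for 9 of 9 members in PS, where this held for 23.8% of transcripts, and for 3 of 9 in AS (cahz, epb41b and aqp1a.1), where it held for 27%. With all libraries pooled by genotype, the same 3 members had every MUT library above every SIB library, which 1.88% of transcripts had. Leaving out MUT_PS replicate 1, the library with the highest level of every member, brought the median PS difference to 0.94.

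**Figure D2:**
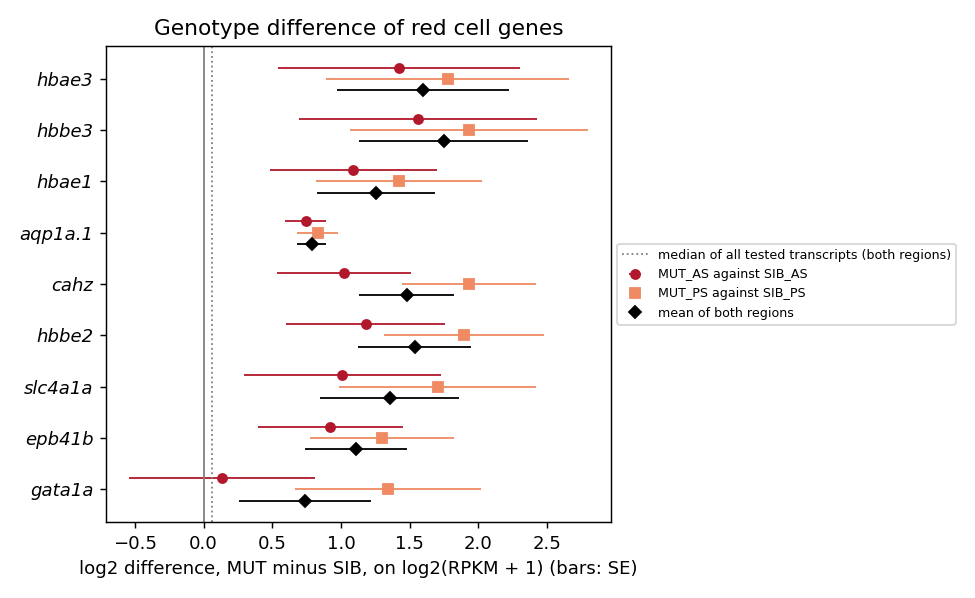
Log2 difference, MUT minus SIB on log2(RPKM + 1), of each member in AS (circles), in PS (squares) and averaged over both regions (diamonds), with bars of 1 SE and a dotted line at the median of all tested transcripts. Averages run from 0.74 for gata1a to 1.75 for hbbe3, and aqp1a.1 has by far the shortest bars.

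Genotype was not the sole axis along which these genes varied. Replicate 1 exceeded replicate 3 for 9 of 9 members in MUT_AS, MUT_PS and SIB_AS and for 8 of 9 in SIB_PS, where gata1a was the exception. On the log2 scale MUT_AS had a mean gap of 1.34, MUT_PS of 1.23, SIB_AS of 0.97 and SIB_PS of 0.27, so that the gaps of 3 groups were of the order of the members' median genotype difference. Summed, the 4 globins reached 3446 and 992 RPKM in MUT_AS and 4758 and 1551 RPKM in MUT_PS, against 1126 and 404 RPKM in SIB_AS and 884 and 672 RPKM in SIB_PS. The members together made up 0.217% to 0.940% of all RPKM in MUT libraries and 0.0886% to 0.244% in SIB libraries.

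Between libraries whose titles end alike, each member was higher in MUT than in SIB, apart from gata1a in AS replicate 3. How many of all transcripts were so was not counted. Most members vary together over the libraries, so they are not independent observations of the genotype difference. The median ratio of MUT to SIB over the members was 2.71 in AS replicate 1, 2.24 in AS replicate 3, 5.30 in PS replicate 1 and 2.39 in PS replicate 3. The widest ratio was that of gata1a in PS replicate 1, at 10.2. In replicate 3 libraries alone the median log2 difference was 1.11, and in replicate 1 libraries alone it was 1.61; neither has a test, and both were computed after the data were seen. The authors' ratio columns divide SIB by MUT libraries whose titles end alike. The labels do not say that such libraries share a clutch, and the common number was not taken as a pairing of embryos. A fit with a replicate block, given below, called more members than aqp1a.1 alone, where it called 19 of all transcripts against 9 as reported.

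Some heart transcripts moved with the replicates in 3 groups. The myosin genes myl7, cmlc1 and vmhc and the natriuretic peptide gene nppa, all heart genes, summed to 37.9 and 0 RPKM in MUT_AS and 21.7 and 0.118 RPKM in MUT_PS, against 28.4 and 0.706 RPKM in SIB_AS and 0.605 and 1.03 RPKM in SIB_PS. The 3 libraries with more than 1.03 RPKM of these transcripts were the replicate 1 libraries of the 3 groups with wide replicate gaps in the members. SIB_PS, with little of these transcripts in either library, had the smallest gap. This set of 4 was not fixed beforehand but picked from the 18 genes found of the heart list, and others did not all follow. The 3 most abundant of the list did not show this pattern in MUT_AS, with actc1a at 351 and 308 RPKM, hand2 at 15.6 and 17.6 RPKM and smtnl1 at 7.52 and 5.55 RPKM. Picked after its values were seen, tnnt2a was at 10.9 RPKM and listed at 0 in MUT_AS. Among replicate 3 libraries, where the heart sum was at most 1.03 RPKM, the globin sums were 992 and 1551 RPKM in MUT and 404 and 672 RPKM in SIB. What share of the replicate or genotype differences goes with heart tissue was not tested.

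**Figure D3:**
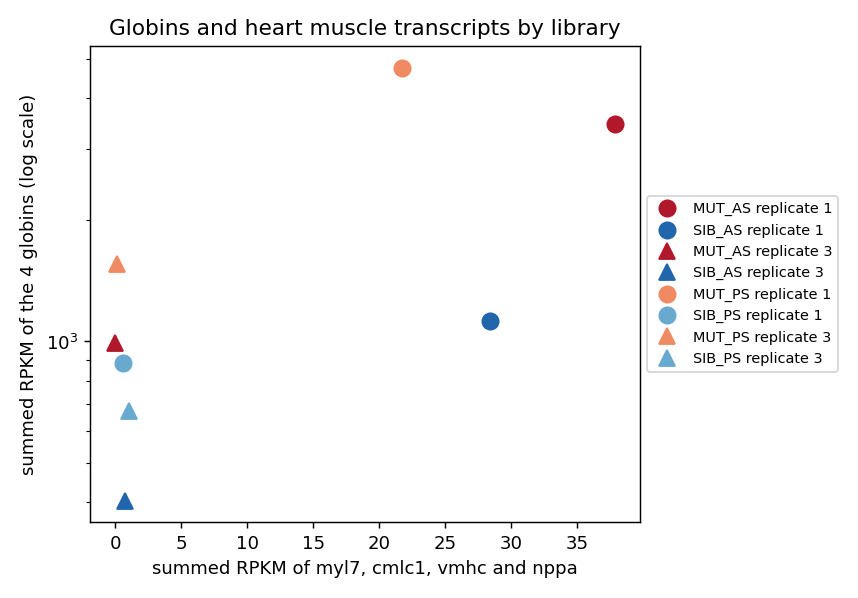
Summed RPKM of 4 globins (vertical, log scale) against summed RPKM of the heart genes myl7, cmlc1, vmhc and nppa (horizontal, linear), 1 point per library. MUT_AS, MUT_PS and SIB_AS replicate 1 lie between 21.7 and 37.9 RPKM of heart transcripts, the other 5 libraries at or below 1.03 RPKM.

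Along the trunk, the members' medians had the opposite sign to those of all transcripts. The fitted level of every member was lower in MUT_AS than in MUT_PS, with log2 differences of -0.22 (aqp1a.1) to -1.11 (gata1a) and a median of -0.56, whereas the median of all transcripts was 0.41. None of the 9 was called and none had an unadjusted p under 0.05, where 55% of transcripts were called in either direction (10.9% lower) and 60.4% had such a p. Between SIB_AS and SIB_PS the differences were -0.30 (hbbe2) to 0.35 (cahz), with a median of -0.18 against 0.40 for all transcripts, and again none was called or had an unadjusted p under 0.05, where 51.2% of transcripts were called (9.62% lower) and 58.2% had such a p. Relative to the shift of all transcripts, the members' medians were -0.97 in MUT and -0.58 in SIB. When each library was centred on its median, aqp1a.1 was called lower in AS in both genotypes, by -0.65 in MUT (adjusted p = 0.00473) and by -0.55 in SIB (adjusted p = 0.0113, limma), and the cahz and gata1a differences in SIB turned negative.

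Several of these regional directions rest on single libraries. Between MUT_AS and MUT_PS, hbae1, hbae3, hbbe3 and epb41b turned positive without MUT_AS replicate 3 (0.09 to 0.38), and hbae3, hbbe3, cahz and epb41b did so without MUT_PS replicate 1 (0.11 to 0.38). The differences of hbbe2, slc4a1a, gata1a and aqp1a.1 stayed negative whichever library was left out (hbbe2 at -1.79 to -0.25). Without MUT_PS replicate 3, the differences of cahz, gata1a and epb41b were -1.23, -1.90 and -1.25. Between SIB_AS and SIB_PS, 6 members turned positive without SIB_AS replicate 3, among them hbae3 at 0.57, hbbe3, slc4a1a and epb41b did so without SIB_PS replicate 1, and cahz and gata1a turned negative without SIB_AS replicate 1. The interaction of genotype and region, (MUT_AS - SIB_AS) - (MUT_PS - SIB_PS), was negative for 9 of 9 members, with a median of -0.37 against 0.02 for all transcripts. No member was called, where 0% of transcripts were, and none had an unadjusted p under 0.05, where 2.74% of transcripts did. Without MUT_AS replicate 3, hbae1, hbae3, hbbe2, hbbe3 and epb41b had a positive interaction, as had hbae1, hbae3, hbbe3, slc4a1a and epb41b without MUT_PS replicate 1 and hbae1, hbae3, hbbe3 and aqp1a.1 without SIB_AS replicate 1 (0.01 to 0.55 in these).

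The summed RPKM of the 4 globins spanned a factor of 11.8 over the libraries. Among these 4, the shares of the abundant chains spanned factors of 1.11 (hbae3) and 1.198 (hbbe3), and those of the minor chains 1.85 (hbae1) and 1.94 (hbbe2). A large share has less room to vary by a factor than a small one. The beta globin hbbe1.1, not among the 4, averaged 799 RPKM, above hbbe3 at 585 RPKM. Per library, hbbe3 over hbbe1.1 ran from 0.583 to 0.899, a factor of 1.54. Its means were 0.765 in MUT and 0.664 in SIB, with overlapping ranges. Of the summed RPKM of the 4 globins, hbae3 took 57.7% to 61.9% in MUT and 58.9% to 64.1% in SIB. The share of hbbe3 was 33.9% to 35.3% in MUT and 29.4% to 34.5% in SIB, that of hbae1 was 3.21% to 5.42% in MUT and 4.22% to 5.96% in SIB, and that of hbbe2 was 0.839% to 1.63% in MUT and 0.948% to 1.23% in SIB. The ratio of alpha (hbae1 and hbae3) to beta (hbbe2 and hbbe3) was 1.81 ± 0.07 in MUT and 2.04 ± 0.18 in SIB (SD, n = 4 each). Each n holds 2 AS and 2 PS libraries, so the SDs mix regions with replicates. These ranges overlap, at 1.71 to 1.86 in MUT and 1.81 to 2.26 in SIB. The ratio depends on which beta genes are counted: with all hemoglobin genes of the fixed list it was 0.699 in MUT and 0.717 in SIB, and with a further pair of rows, found by older names, it was 0.483 in MUT and 0.456 in SIB.

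**Figure D4:**
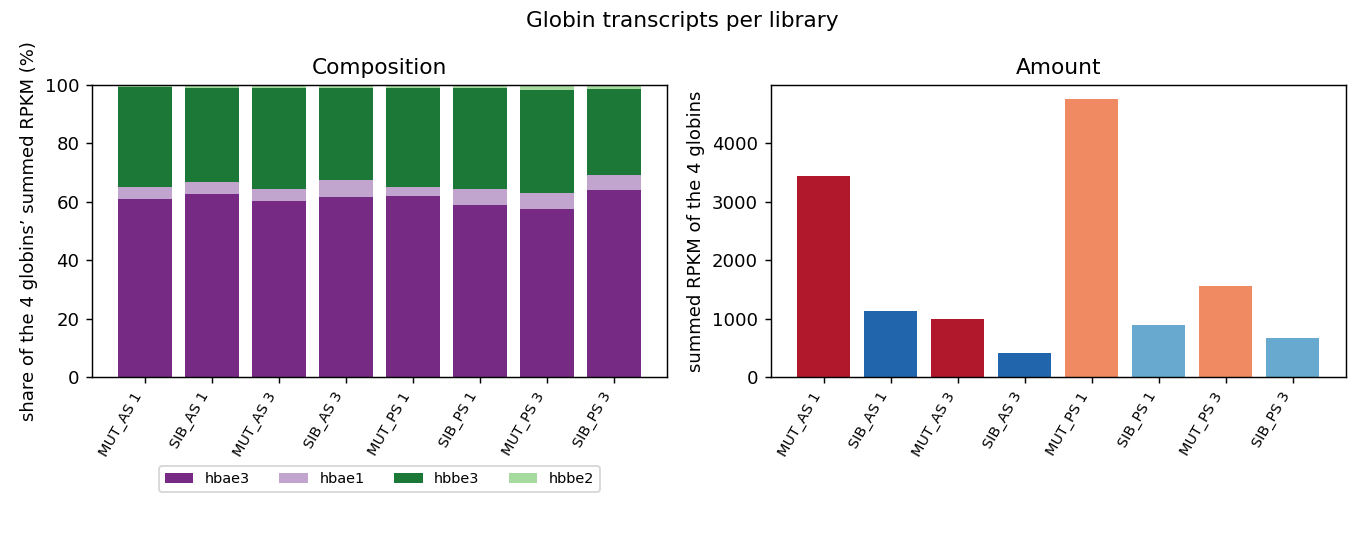
Left, the share of each of 4 globins in their summed RPKM (%), per library; right, the summed RPKM itself, in bars starting at 0. The shares stay within 57.7% to 64.1% for hbae3 and 29.4% to 35.3% for hbbe3, while the sums are highest in MUT_PS replicate 1, at 4758 RPKM, and lowest in SIB_AS replicate 3, at 404 RPKM.

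The other members were also set against the globins. Divided by the globin sum of the same library, the log2 difference of MUT minus SIB was -0.07 for cahz, -0.17 for slc4a1a, 0.05 for gata1a (3 MUT libraries, without the one listed at 0) and -0.01 for epb41b. Single libraries varied around these means. For cahz they held 10.2, 18.9, 12.95 and 15.3 RPKM per 1000 RPKM of globin in MUT (MUT_AS, then MUT_PS) and 15.2, 21.1, 11.8 and 12.4 in SIB, and gata1a, where not listed at 0, held 0.789 to 1.299 in MUT and 0.682 to 1.19 in SIB. For epb41b the range was 1.36 to 1.82 in MUT and 1.46 to 1.78 in SIB. For slc4a1a the values were 7.16, 9.62, 10.8 and 11.02 RPKM per 1000 RPKM of globin in MUT libraries and 10.6, 10.3, 11.58 and 10.3 in SIB libraries. The exception was aqp1a.1, at 10.4, 33.9, 8.63 and 26.0 RPKM per 1000 RPKM of globin in MUT libraries and 19.4, 46.9, 25.9 and 32.8 in SIB libraries, a log2 difference of -0.82. The root mean square distance of a member's centred log2 values from the mean profile of the other 8 members was 0.179 to 0.441 for 8 members and 0.632 for aqp1a.1.

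**Figure D5:**
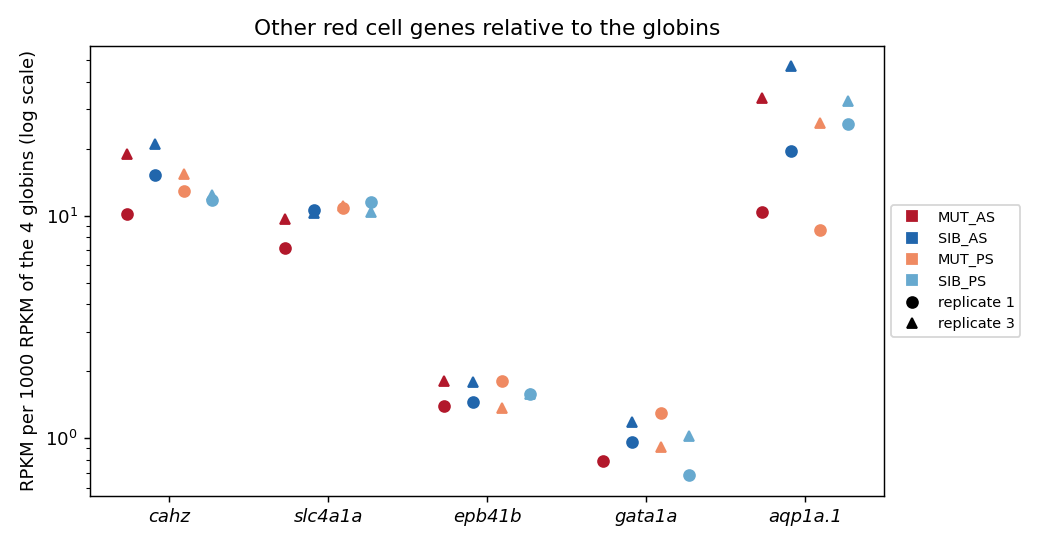
RPKM of 5 members per 1000 RPKM of globin (log scale), per library, coloured by group, with circles for replicate 1 and triangles for replicate 3. Libraries of both genotypes intermix for cahz, slc4a1a, epb41b and gata1a (MUT_AS replicate 3, listed at 0, is not drawn). For aqp1a.1 the lowest points are MUT_AS and MUT_PS replicate 1, at 10.4 and 8.63, and the MUT replicate 3 points lie among the SIB points.

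The transcripts outside the set that lay nearest to the mean profile of all 9 members over the 8 libraries were LOC573653 (distance 0.152), alas2 (0.157), si:busm1-118j2.5 (0.161), nmt1b (0.182), MGC173646 (0.192), a further row of hbbe1.1 (0.192), hif1al2 (0.213) and nt5c2l1 (0.214). Matched to the RefSeq annotation by gene number or older name, LOC573653, si:busm1-118j2.5 and MGC173646 are the embryonic beta globins hbbe1.3, hbbe1.1 and hbbe1.2. The further row of hbbe1.1 and MGC173646 stood in a ratio of 1.0264 in all 8 libraries, so these rows share their reads and are not independent. The enzyme that opens heme synthesis in red cells is encoded by alas2, which had 21.7 and 8.63 RPKM in MUT_AS and 47.3 and 13.8 RPKM in MUT_PS, against 9.40 and 3.92 RPKM in SIB_AS and 8.78 and 6.37 RPKM in SIB_PS. Its MUT libraries overlapped the SIB libraries in AS and not in PS, and its log2 difference over both regions was 1.35 (SE 0.50, adjusted p = 0.416 by limma). Transcripts chosen for nearness to the members' profile share its genotype pattern by that choice, so these values are no separate evidence.

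The globin genes form 2 clusters in zebrafish. In the RefSeq order of genes (GRCz12tu, used here for names and neighbours only), hbae1, now hbae1.1, lies between hbbe1.1 and hbbe1.2 in the cluster that also holds hbae3 and the adult globins, while hbbe3 and hbbe2 are neighbours in another cluster beside hbae4. Embryonic globins of both clusters had higher fitted levels in MUT over both regions, and none was called in the fit as reported. The adult beta globin hbba2 ran the other way, as given below. For hbbe1.1 the row with the highest mean was at 1311 and 451 RPKM in MUT_AS and 2389 and 759 RPKM in MUT_PS, against 539 and 195 RPKM in SIB_AS and 409 and 339 RPKM in SIB_PS. The log2 difference was 1.55 for hbbe1.1 (adjusted p = 0.420 by limma) and 1.51 for MGC173646 (adjusted p = 0.394 by limma). The gene hbae4, listed as zgc:163057, was at 5.16 RPKM and listed at 0 in MUT_AS and at 9.23 and 2.61 RPKM in MUT_PS, against 1.85 and 1.07 RPKM in SIB_AS and 1.73 and 1.39 RPKM in SIB_PS. The hbae4 difference was 0.64 over both regions (SE 0.64, adjusted p = 0.773 by limma) and 0.03 in AS (SE 0.90). Near-identical globin copies can trade reads, so levels of single beta globins are uncertain.

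Other red cell genes were read from fixed lists, and over both regions no gene of any list was called. Without MUT_AS replicate 1, which brought the calls over all transcripts to 720 against 9 as reported, rhag, nfe2, rhd, blvrb and ppox among the genes named here were called higher, and without MUT_PS replicate 3 znfl2a was. Of heme synthesis and mitochondrial iron genes, 10 of 13 were higher in MUT, 7 of them with an unadjusted p under 0.05, where 8.57% of transcripts had one on the higher side and 2.58% on the lower side, and the median log2 difference was 0.69. The most abundant, glrx5 (-0.05), tmem14c (0.04) and alas1 (-0.14), differed little. Larger differences were those of urod (0.87) and ppox (0.94), which were picked after their values were seen. Erythroid regulators were higher in 13 of 15, 5 of them with an unadjusted p under 0.05, with a median of 0.23. Among them ldb1a, klf6a and e2f4, the most abundant, differed by 0.11, 0.12 and 0.12, while znfl2a (1.12) and nfe2 (0.84), picked after their values were seen, differed more.

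Red cell membrane and skeleton genes were higher in 10 of 14, with a median of only 0.07, and 3 higher and 3 lower genes had an unadjusted p under 0.05. The most abundant were the ankyrin gene ank1 (-0.27), the ammonia channel gene rhag (0.50) and stom (-0.03), and rhd (1.09), slc43a1b (-0.50) and the glycophorin gene gypc (-0.34) were picked after their values were seen. Iron, redox and enzyme genes were higher in 19 of 23, with a median of 0.19, and 6 higher genes and 1 lower gene had an unadjusted p under 0.05. The ferritin gene fth1a differed by 0.23, the peroxiredoxin gene prdx2 by 0.33 and the glutathione peroxidase gene gpx4b by 0.19, and blvrb (0.66) was picked after its values were seen. Of globins of other cells, cygb1 differed by -0.12 and the myoglobin gene mb by 0.25.

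Markers of other cells that trunk tissue could hold were set beside the members. Endothelial genes, which line the vessels that carry red cells, were higher in MUT in 7 of 12, with a median of 0.02, and their summed RPKM was 85.4 and 84.1 in MUT_AS and 76.0 and 75.1 in MUT_PS, against 94.3 and 85.0 in SIB_AS and 64.9 and 57.2 in SIB_PS. In PS, where no member overlapped between genotypes, both MUT sums were thus above both SIB sums, as were 23.8% of single transcripts. Most of the PS gap in these sums was that of vsg1, the most abundant gene of the list, whose values follow. Of the endothelial genes, 9 of 12 were higher in PS and 5 of 12 in AS. Their median difference was 0.12 in PS and -0.15 in AS, against 0.06 and 0.08 for all transcripts. The part of endothelial genes in the members' differences was not tested. The receptor gene kdrl and the cadherin gene cdh5 differed by 0.01 and -0.08, whereas vsg1, the older symbol of plvapb, was at 17.09 and 15.6 RPKM in MUT_AS and 24.4 and 24.6 RPKM in MUT_PS, against 10.7 and 9.85 RPKM in SIB_AS and 14.8 and 11.7 RPKM in SIB_PS, a log2 difference of 0.73 (SE 0.11, adjusted p = 0.0619 by limma). It was called without MUT_AS replicate 1 (adjusted p = 0.00709) or MUT_AS replicate 3 (0.0134). Myeloid genes were higher in 12 of 19, with a median of 0.08, and 2 higher and 4 lower genes had an unadjusted p under 0.05. Thrombocyte and stem cell genes were higher in 2 of 4, with a median of -0.02. Heart genes were higher in 11 of 13, with a median of 0.33. Liver, gut and pancreas genes were higher in 3 of 17, with a median of -0.09; by region they were higher in 3 of 17 in AS (median -0.20) and in 12 of 17 in PS (median 0.10). An unadjusted p under 0.05 on the higher side was found for 1 thrombocyte and stem cell gene, 1 endothelial gene, 2 heart genes and 2 liver, gut and pancreas genes, and for no gene of these lists on the lower side.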

How the data were processed

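Per the series' design text, the authors aligned paired reads to Zv9 (danRer7) with RUM, which assigned each read to 1 transcript. The constant ratio of the further hbbe1.1 row to MGC173646 is at odds with this for these rows, and the reason was not tested. The sources used here give no version of RUM. The deposited values are on a log2 scale, log2(RPKM + 1), with 1 column for each library, per the file headers. The 4 ratio columns (SIB over MUT, of log2 values) that the authors deposited beside them were not used. Each sets libraries whose titles end alike against each other. Of 14809 rows, 228 fill rows with empty ratio columns were dropped. The table holds no counts, so read depth and counting error were not estimated. Embryos and libraries were as the labels' protocols state: storage in RNAlater lasted at most 2 days, RNA integrity numbers were 8 or higher, and stranded libraries had 15 PCR cycles.

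The 10889 transcripts that averaged 1 RPKM or more were fitted in R 4.3.3 with limma 3.58.1 and statmod 1.5.0, with trend and robust options, 1 mean per group and all 8 libraries, and the steps were tested on simulated data. In that simulation, which gave each group its own spread, the share of false calls in MUT_AS against SIB_AS was above 0.05. The shared estimate of the spread does not allow for the wider spread in MUT_AS. Benjamini-Hochberg adjusted p-values under 0.05 were called. Log2 differences understate ratios of low values. Of 14581 transcripts, 94.0% had accessions in the RefSeq table used for names. Members and lists were chosen with earlier results of these data known. Named were the members, the 3 most abundant genes of each red cell list, list genes called or set beside the members, and the 8 transcripts nearest the members' profile; for the region contrasts and the lists of other cells, counts are given instead of most names. Genes outside this rule are marked as picked after their values were seen. The alternatives were another pseudocount (0.1 or 0.5), other filters, median scaling, a weight per group, no trend or robust option, a replicate block, only the groups compared, and leaving out each library.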

Additional observations from a re-analysis of the deposited data

How the results depend on the processing

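Over both regions the members' median log2 difference stayed positive under every alternative (1.03 to 1.74 when a library was left out), and so did each member's difference except that of gata1a, which was -0.021 in replicate 3 libraries alone. The number of members called was 0 with no filter and with median scaling, and 0 to 1 with a library left out. With the replicate block it was 4 (hbbe3, cahz, slc4a1a and aqp1a.1). The replicate numbers were not accepted as a pairing, since deviations from group means correlated at -0.094 between MUT_AS and SIB_PS and at 0.152 to 0.522 in the other pairs of groups. The block also gave 2 calls (hbbe2 and slc4a1a) between MUT_AS and MUT_PS and changed no other count of members called.

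In AS, gata1a was -0.64 with a pseudocount of 0.1 and ran from -0.81 to 1.082 with a library left out. In PS, 1 member was called with a weight per group, where 17 of all transcripts were. With only the groups compared 3 members were called, where 99 of all transcripts were. Leaving out a library gave medians of 0.94 to 2.33 in PS. Between MUT_AS and MUT_PS median scaling gave 1 call, where 4832 of all transcripts were called. Leaving out a library gave a median of -1.45 to -0.13. It put hbae1 at -1.48 to 0.23, hbae3 at -1.44 to 0.38, hbbe3 at -1.45 to 0.32, epb41b at -1.25 to 0.38 and cahz at -1.23 to 0.11. Between SIB_AS and SIB_PS median scaling gave 1 call and put cahz at -0.072 and gata1a at -0.32; leaving out a library gave cahz at -0.12 to 0.81, gata1a at -0.15 to 0.34, hbae1 at -0.77 to 0.18, hbae3 at -0.93 to 0.57, hbbe2 at -0.89 to 0.29, hbbe3 at -0.95 to 0.56, slc4a1a at -0.87 to 0.45 and epb41b at -0.37 to 0.25. For the interaction the ranges were -1.26 to 0.072 for the median, -1.19 to 0.52 for hbae1, -1.26 to 0.55 for hbae3, -1.49 to 0.054 for hbbe2, -1.26 to 0.52 for hbbe3, -1.18 to 0.44 for epb41b, -1.46 to 0.072 for slc4a1a and -0.19 to 0.012 for aqp1a.1.

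Among other genes over both regions, leaving out a library gave -0.014 to 1.298 for zgc:163057, -0.35 to 0.10 for cygb1, -0.013 to 0.24 for ldb1a, -0.00079 to 0.24 for e2f4, -0.27 to 0.18 for glrx5, -0.042 to 0.13 for tmem14c and -0.33 to 0.27 for stom, and median scaling put tmem14c at -0.029. The vsg1 difference was called with a mean of at least 5 RPKM and with the replicate block (adjusted p = 0.0413 in each, limma). The alpha to beta ratio was 0.699 in MUT and 0.717 in SIB with all hemoglobin genes. It was 0.483 in MUT and 0.456 in SIB with 2 further rows, which bring hbbe1.1 in with a second row. Over all transcripts the calls between genotypes in both regions, 9 as reported, ran from 0 to 720 with a library left out and were 2 with no filter and 19 with the replicate block. Summing rows of a symbol left the members as they were, since each has 1 row. A fit that leaves out a library assumes that the lone library of its group varies like the others. The causes of these changes were not tested.

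Each group has 2 libraries. Read depth is not in the table, and MUT_AS replicate 3 has the most transcripts listed at 0.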

Other observations

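Adult globins were at the edge of detection and did not all follow the embryonic ones. The adult alpha globin hbaa1 was at 1.55 RPKM and listed at 0 in MUT_AS and at 1.43 and 0.271 RPKM in MUT_PS, against 0.0927 RPKM and listed at 0 in SIB_AS and 0.162 and 0.137 RPKM in SIB_PS. The adult beta globin hbba2, listed as zgc:92880, ran the other way. It was at 0.509 RPKM and listed at 0 in MUT_AS and at 0.787 and 0.397 RPKM in MUT_PS, against 1.07 and 1.004 RPKM in SIB_AS and 1.60 and 2.06 RPKM in SIB_PS, so that each MUT library was below each SIB library. Both have a mean under 1 RPKM and were not tested, and zgc:92880 was picked after its values were seen. How many of all transcripts had every MUT library below every SIB library was not counted. The values of 0 in MUT_AS are in the library with the most transcripts listed at 0.

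Among the myeloid genes, a blood lineage apart from red cells, the lysozyme gene lyz was at 138 and 103 RPKM in MUT_AS and 19.6 and 20.7 RPKM in MUT_PS, against 85.2 and 90.3 RPKM in SIB_AS and 49.5 and 57.3 RPKM in SIB_PS. Its genotype difference was 0.44 in AS (adjusted p = 0.392 by limma) and -1.36 in PS (adjusted p = 0.0937), with an interaction of 1.80 (adjusted p = 0.119). The neutrophil gene mpx was at 2.02 and 3.97 RPKM in MUT_AS and 6.24 and 7.42 RPKM in MUT_PS, against 5.06 and 9.52 RPKM in SIB_AS and 9.96 and 6.50 RPKM in SIB_PS, with a difference over both regions of -0.63 (adjusted p = 0.354 by limma). Lower in PS as well were npsn, by -0.92 (adjusted p = 0.998 by limma), and npsnl, by -1.03 (adjusted p = 0.150). Over both regions they differed by -0.40 and -0.50. Of the 19 myeloid genes tested, 12 were higher in MUT over both regions and 7 lower, with 2 higher and 4 lower at an unadjusted p under 0.05. Among the higher ones were spi1b (0.41) and cebpb (0.36). All genes named in this paragraph were picked after their values were seen.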
